A study of Homo sapiens with 9 samples.

Results

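DNA mismatch repair removes bases that were paired wrongly during replication, together with short loops left by slippage of the polymerase. MutS complexes recognize the error, MutL complexes are recruited to it, and the new strand is then cut back, filled in and ligated. Loss of the pathway gives microsatellite instability and tolerance of some DNA-damaging drugs, which is why it is of interest in ovarian cancer. Here 5 genes of this pathway were followed, namely MSH6 and MSH3, which encode the subunits that set the specificity of MutS alpha (base mismatches and small loops) and MutS beta (larger loops), PMS2, the nicking subunit of MutL alpha, PMS1, the subunit of MutL beta, and MLH3, the subunit of MutL gamma, which also acts in meiotic crossing over. They were taken by symbol, and they are 5 of the 58735 genes of the deposited count table.

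RNA of SKOV3 cells, an established human ovarian cancer line, was profiled by RNA-seq in 9 libraries, 3 from each of 3 groups. The group named WT CDK9 cells was a stable line expressing WT CDK9, the kinase of the elongation factor P-TEFb. ALK inhibitor-treated WT CDK9 cells, labelled Ai, received an ALK inhibitor for 24 h, whose name and dose are not given in the sources used here for this experiment. Y19F CDK9 cells were a stable line whose CDK9 carries phenylalanine in place of the tyrosine that the study describes as phosphorylated by ALK. In the study such lines were made in cells in which endogenous CDK9 had been depleted by shRNA, a step that the groups would share, but the description of the sequencing does not repeat it. Each construct was 1 line, so that the substitution and any other difference between the lines cannot be told apart. Nothing in the labels says that the 3 libraries of a group came from separate cultures, and the p-values then measure the spread between these libraries, which may be technical. Whether the inhibitor and the substitution altered the RNA of the mismatch repair genes was the question addressed.

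Libraries held between 18169050 and 29320184 counts, and those of Y19F CDK9 cells were the deepest. CDK9 itself stood at 48.6 ± 1.03 CPM (counts scaled to 1000000 per library, SD, n = 3) in WT CDK9 cells, 45.6 ± 1.77 in inhibitor-treated cells and 55.0 ± 3.94 in Y19F CDK9 cells. This is a sum over all its transcripts that does not separate the alleles. In edgeR's test, described below, CDK9 was higher in Y19F than in treated cells, by 0.27 on the log2 scale (adjusted p = 0.00961). Against WT CDK9 cells the changes were 0.18 in Y19F CDK9 cells (adjusted p = 0.106) and -0.09 after inhibition (adjusted p = 0.665). The epithelial markers of this line, KRT8, KRT18, KRT19, ERBB2, PAX8 and EPCAM, were counted in every library, with EPCAM the weakest at 9.72 to 23.0 CPM. The leukocyte marker PTPRC reached at most 2 counts and the endothelial marker PECAM1 at most 3. The fibroblast markers DCN and LUM were at 4 counts or fewer, whereas COL1A1, which tumour cells can also express, ranged from 30.4 to 149 CPM.

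All 5 genes lie on autosomes, and positions are those of the deposited table (GRCh38). MSH3 (ENSG00000113318) spans chr5:80654648-80876460 on the plus strand and MSH6 (ENSG00000116062) chr2:47695530-47810101 on the plus strand. MLH3 (ENSG00000119684) spans chr14:75013764-75051532 on the minus strand, PMS1 (ENSG00000064933) chr2:189784085-189877629 on the plus strand, and PMS2 (ENSG00000122512) chr7:5973239-6009125 on the minus strand. The starts of PMS1 and ORMDL1 (a regulator of sphingolipid synthesis), which is read in the other direction, lie 286 bases apart, and those of PMS2 and AIMP2 (a scaffold of the tRNA synthetase complex), also divergent, 120 bases.

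Promoter windows of 300 bases, 250 before and 50 after the RefSeq start, were found in RefSeq (GRCh38.p14) for 5 of 5 genes. The MSH6 window (chr2:47782895-47783194) lies well inside the span given above, whose start at 47695530 is not the RefSeq start. Sequence is shown for 3 of them, limited to stretches without an annotated GENCODE exon: MLH3, a gene called below, MSH6, the most abundant, and PMS2, for the stretch it shares with AIMP2. Capitals mark matches, on either strand, to an E2F-type octamer (TTTGGCGC, TTTCCCGC, TTTCGCGC or TTTGCCGC), to the Sp1 box GGGCGG or to CCAAT, and adjoining or overlapping matches run together. The stretches are chr2:47782895-47783081 (plus strand) for MSH6, chr14:75051533-75051717 (minus strand) for MLH3 and chr7:6009131-6009254 (minus strand) for PMS2. Each is written 5′ to 3′ in the direction of the gene. The PMS2 stretch thus runs from the side of AIMP2 towards the PMS2 start.
MSH6: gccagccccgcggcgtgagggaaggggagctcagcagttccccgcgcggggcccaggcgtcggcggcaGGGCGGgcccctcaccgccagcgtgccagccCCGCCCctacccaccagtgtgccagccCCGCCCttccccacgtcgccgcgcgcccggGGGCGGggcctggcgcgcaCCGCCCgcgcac
MLH3: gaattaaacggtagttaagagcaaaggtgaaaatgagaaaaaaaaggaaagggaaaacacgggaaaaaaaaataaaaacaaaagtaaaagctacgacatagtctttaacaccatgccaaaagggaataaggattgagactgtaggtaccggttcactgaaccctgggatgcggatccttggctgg
PMS2: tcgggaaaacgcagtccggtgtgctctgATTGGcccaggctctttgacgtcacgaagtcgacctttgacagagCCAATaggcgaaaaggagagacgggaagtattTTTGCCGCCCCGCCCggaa

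The E2F-type letters were present in the windows of MSH3, with 2 overlapping matches, MSH6, with 1 that lies outside the stretch shown, and PMS2, with 1, and in 3.33% of the 27305 RefSeq promoter windows of this length. Sp1 boxes were found in 4 of the 5 windows, MSH6 holding 5 of them and MSH3 holding 4, and in 44.6% of all windows. CCAAT was found in MSH6, PMS1 and PMS2, and in 35.7% of all windows. The MLH3 window held none of the 3 motifs. Its GC content was 51.0%, the lowest of the 5, which otherwise ran from 60.7% (PMS2) to 78.0% (MSH6) against a median of 58.3% over all windows. These are matches of letters only.

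MSH6 was the most abundant of the 5 transcripts in every library. Per kilobase of the gene length listed in the table, its level in WT CDK9 cells was 14.7 ± 0.315 CPM per kb (SD, n = 3), followed by MSH3 at 5.74 ± 0.721, MLH3 at 3.78 ± 0.154, PMS1 at 3.69 ± 0.352 and PMS2 at 3.02 ± 0.374. The lowest MSH3 library, at 4.98 CPM per kb, lay above the highest MLH3 library, at 3.90, but MLH3 and PMS1 overlapped and the lowest PMS1 value, 3.47, was next to the highest PMS2 value, 3.45. The order of the lower genes depends on the length used. When the length of the canonical transcript replaced the listed length, PMS1 (6.38 ± 0.608 CPM per kb) and MSH3 (6.08 ± 0.764) overlapped and both lay above MLH3 (4.04 ± 0.165), while MSH6 was at 37.9 ± 0.811. The listed length of MSH6 is 10993 bases and its canonical transcript has 4265 bases. For PMS2 the canonical transcript, at 5093 bases, is longer than the listed 3936 bases, and its level became 2.33 ± 0.289 CPM per kb. Under both lengths MSH6 stood first and PMS2 last in WT CDK9 cells. The PMS2 counts may not cover its whole canonical transcript, which would make the second value too low.

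**Figure D1:**
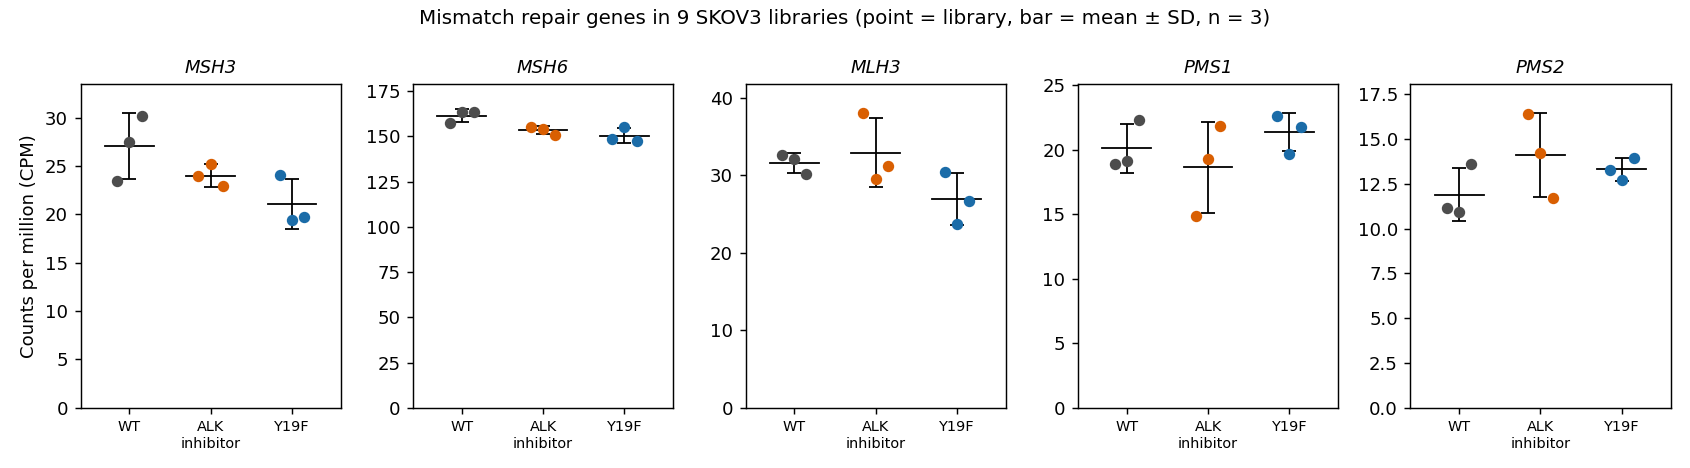
Normalised level (CPM, vertical axes from 0) of MSH3, MSH6, MLH3, PMS1 and PMS2 in WT CDK9 cells, ALK inhibitor-treated WT CDK9 cells and Y19F CDK9 cells, with 1 point per library and the mean ± SD of 3 libraries. MSH3 averaged 27.0 CPM in WT and 21.1 CPM in Y19F CDK9 cells with 1 Y19F library inside the WT range, and MSH6 stayed between 147 and 164 CPM.

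ALK inhibition for 24 h was accompanied by no called change in any of the 5 genes. In edgeR's quasi-likelihood test, 0 of 5 had an adjusted p (Benjamini-Hochberg over 16350 tested genes) under 0.05, against 4.55% of all tested genes, 0 of 5 had an unadjusted p under 0.05, against 15.1%, and DESeq2 called 0 of 5, against 6.63%. Their log2 fold changes had a median of -0.07, where the median of all tested genes was -0.001. The intervals still allow moderate changes, and they were widest for PMS2, the gene with the fewest reads.

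MSH6, the mismatch reader, was counted 3069, 3093 and 3062 times in the WT CDK9 libraries, or 157, 163 and 164 CPM, and stood at 155, 154 and 151 CPM after inhibition. All 3 treated libraries were thus below all 3 untreated ones, which among the 5 genes was true of MSH6 alone and in this comparison of 19.6% of tested genes in one direction or the other. The shift was -0.07 on the log2 scale (SE 0.05, 95% interval -0.17 to 0.02, adjusted p = 0.533). Its libraries varied by 1.44 to 2.72% within groups, close to the 1.54 to 1.83% that counting alone gives, so MSH6 was the gene measured most precisely.

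For PMS2, the MutL nicking subunit, WT CDK9 libraries gave 11.1, 10.9 and 13.6 CPM and treated libraries 16.4, 14.2 and 11.7 CPM. The groups overlapped, and the log2 fold change was 0.25 (SE 0.15, 95% interval -0.05 to 0.55, adjusted p = 0.468). PMS1 had the opposite sign in the same libraries, at 14.9, 19.3 and 21.9 CPM after inhibition against 18.9, 19.1 and 22.3 CPM in WT, a log2 fold change of -0.11 (SE 0.13, adjusted p = 0.785). Among all 9 libraries, Ai replicate 01 was the highest for PMS2 and for MLH3 and the lowest for PMS1, and without it the PMS2 change was 0.13, and the sign of the PMS1 change turned to 0.04 and that of MLH3 to -0.05. The log2 fold change was 0.06 (SE 0.11, adjusted p = 0.872) for MLH3 and -0.17 (SE 0.11, 95% interval -0.40 to 0.06, adjusted p = 0.549) for MSH3 with all libraries in, where MSH3 ranged from -0.08 without WT replicate 03 to -0.26 without WT replicate 01.

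In Y19F CDK9 cells, MSH3 was lower than in WT CDK9 cells, and it was the only one of the 5 genes called. WT CDK9 libraries held 457, 520 and 565 MSH3 counts, or 23.4, 27.4 and 30.2 CPM, and the deeper Y19F libraries held 711, 545 and 523, or 24.1, 19.4 and 19.7 CPM. A pair of Y19F libraries lay below every WT library, and Y19F replicate 01 lay just above the lowest WT library, so that the groups overlapped. The fitted change was -0.36 on the log2 scale, or 0.78-fold (SE 0.11, 95% interval -0.59 to -0.13, adjusted p = 0.0238). In DESeq2 it was -0.36 with an adjusted p of 0.0301. A count of 1 in 5 is close to the 18.0% of all tested genes called in this comparison (10.4% called lower), and DESeq2 likewise called 1 of 5, against 20.3%. In bulk RNA, fewer cells with the transcript and less transcript per cell cannot be told apart.

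The MSH3 call rested on single libraries. It was lost when WT replicate 02 (-0.34, adjusted p = 0.0674), WT replicate 03 (-0.27, adjusted p = 0.179), Y19F replicate 02 (-0.30, adjusted p = 0.128) or Y19F replicate 03 (-0.31, adjusted p = 0.110) was left out, and it was kept without WT replicate 01 or Y19F replicate 01. Within WT and within Y19F CDK9 cells MSH3 varied by 12.6% and 12.4%, about 3 times the 4.41% and 4.11% of counting error.

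**Figure D2:**
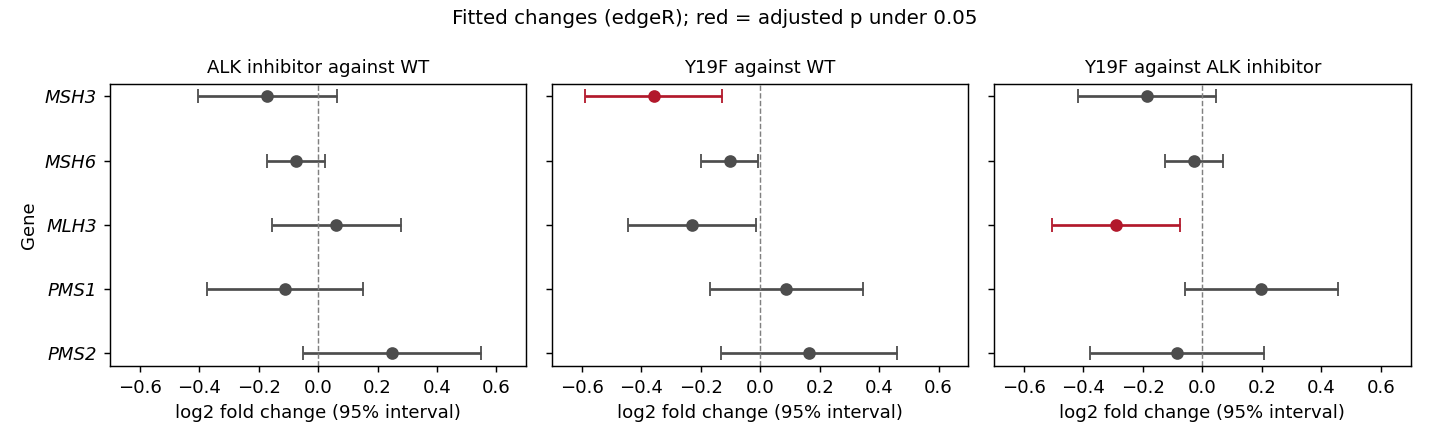
Fitted log2 fold changes (horizontal axes) of the 5 genes with 95% intervals in the 3 comparisons, with red marking an adjusted p under 0.05. MSH3 at -0.36 against WT and MLH3 at -0.29 against the inhibitor are the called values, and the intervals of PMS1 and PMS2 cross 0 in every comparison.

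The MutS genes MSH6 and MSH3 were both below 0 in Y19F against WT CDK9 cells, but by different sizes. MSH6 stood at 149, 155 and 147 CPM in Y19F CDK9 libraries, all below the WT libraries, and its log2 fold change was -0.10 (SE 0.05, 95% interval -0.20 to -0.006, adjusted p = 0.142). MSH6 was again the 1 gene of 5 whose groups were apart, against 32.6% of all tested genes. Within a library, the ratio of MSH6 to MSH3, in counts per kilobase, was 2.88, 2.55 and 2.32 in WT and 2.64, 3.42 and 3.20 in Y19F CDK9 cells. The mean log2 ratio was 0.26 higher in Y19F CDK9 cells, with overlapping groups (exact two-sided permutation test, p = 0.2, adjusted p = 0.45 over 9 ratio tests, where 0.1 is the smallest p that 3 against 3 libraries allow).

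Of the MutL genes, MLH3 gave 32.6, 32.1 and 30.1 CPM in WT and 30.5, 23.7 and 26.7 CPM in Y19F CDK9 cells. Only Y19F replicate 01 fell within the WT range, and the log2 fold change of -0.23 (SE 0.11, 95% interval -0.44 to -0.01) had an unadjusted p of 0.0378 and an adjusted p of 0.142. Together with MSH3 and MSH6 this made 3 of 5 genes with an unadjusted p under 0.05, all below 0, against 29.0% of tested genes in either direction. PMS1 (19.7 to 22.6 CPM in Y19F CDK9 cells) and PMS2 (12.7 to 14.0 CPM) were above 0 instead, with log2 fold changes of 0.09 (SE 0.13, adjusted p = 0.714) and 0.16 (SE 0.15, adjusted p = 0.511).

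Compared directly with the inhibitor-treated cells, Y19F CDK9 cells had lower MLH3. Treated libraries gave 38.0, 29.5 and 31.3 CPM against the 30.5, 23.7 and 26.7 CPM above, and the ranges overlapped because Y19F replicate 01 exceeded Ai replicate 02. The log2 fold change was -0.29, or 0.82-fold (SE 0.11, 95% interval -0.51 to -0.08, adjusted p = 0.0472). MLH3 was the 1 gene of 5 with an adjusted p under 0.05, against 20.7% of tested genes, and also the 1 gene of 5 with an unadjusted p under 0.05, against 31.5%. DESeq2 called 0 of 5 (MLH3 adjusted p = 0.0697), against 20.5%, and 0 of 5 genes had groups that were apart, against 34.4%. This comparison and those against WT share libraries and do not stand for separate evidence.

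The MLH3 call also rested on single libraries. It held in 2 of the 6 fits that leave out 1 library of these groups, as the MSH3 call did in its own comparison, and in 2 of all 9 (MSH3 in 5 of 9), those without Ai replicate 02 or Y19F replicate 01, and was lost without any of the other 7, with a change of -0.17 (adjusted p = 0.347) without Ai replicate 01. MSH3 differed between these groups by -0.19 (SE 0.11, adjusted p = 0.272), PMS1 by 0.20 (SE 0.13, adjusted p = 0.300), MSH6 by -0.03 (SE 0.05, adjusted p = 0.733) and PMS2 by -0.08 (SE 0.14, adjusted p = 0.744). Other values moved with the Y19F group too. COL1A1 with the other fibroblast markers summed to 30.6 to 45.2 CPM in Y19F libraries, against 103 to 149 in the rest, and the 3 endothelial markers to 1.05 to 1.39 CPM against 0.0475 to 0.641. Of the epithelial markers, KRT19 averaged 104 CPM in Y19F CDK9 cells against 246 in WT and 284 in treated cells, EPCAM 12.0 against 21.2 and 20.9, and KRT8 1695 against 1307 and 1306. KRT18 averaged 177 CPM in Y19F CDK9 cells, 135 in WT and 149 in treated cells. PAX8 hardly differed, at 266, 270 and 263 CPM in the same order. ERBB2 was highest in treated cells, at 2625 CPM, against 1800 in WT and 1470 in Y19F CDK9 cells. The part of these values in the MSH3 and MLH3 results was not tested.

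The ratios of PMS2 to its MutL relatives did not separate the groups. PMS2 to PMS1 was 0.815, 0.792 and 0.842 in WT CDK9 cells, 1.53, 1.02 and 0.740 after inhibition and 0.811, 0.893 and 0.887 in Y19F CDK9 cells. The treated libraries thus spread on both sides of the others (SD 0.52 on the log2 scale, against 0.04 in WT). The mean log2 difference between treated and WT cells was 0.36, and 0.09 without Ai replicate 01, and that between Y19F and treated cells was -0.28, and -0.01 without Ai replicate 01. PMS2 to MLH3 was 0.726, 0.723 and 0.957 in WT and 0.923, 1.14 and 1.11 in Y19F CDK9 cells, a mean log2 difference of 0.41 (exact two-sided permutation test, p = 0.2, adjusted p = 0.45). Over the 9 ratio tests the adjusted p-values were 0.45 or 0.5.

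Genes near MSH3 and MLH3 were read beside them. Of the 16 tested genes within 1 Mb of MSH3, 10 were below 0 in Y19F against WT CDK9 cells. In edgeR's test 0 of them had an adjusted p under 0.05, beside 18.0% of all tested genes. DESeq2 called 0 as well, beside 20.3%. An unadjusted p under 0.05 in edgeR was found for 3 of the 16, beside 29.0% of all tested genes. The median of the 16 was -0.08. Against inhibitor-treated cells 12 of the 16 were below 0 and 1 was called lower, beside 11.1% of all tested genes, with a median of -0.17. Neighbours of MLH3 were mostly below 0, as MLH3 was. Of 28 tested genes within 1 Mb, 24 were below 0 in Y19F against inhibitor-treated cells and 9 were called lower, against 11.1% of all tested genes called lower. Their median was -0.24, and 11 of them were lower than MLH3. Against WT CDK9 cells 22 of the 28 were below 0 and 7 were called lower, beside 10.4% of all tested genes, with a median of -0.24. The neighbourhoods were not tested against each other. Among those called lower than in treated cells were TMED10, a cargo receptor of the secretory pathway, at -0.40 (adjusted p = 9.2e-09), and FOS, an early response transcription factor, at -1.31 (adjusted p = 0.0159).

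**Figure D3:**
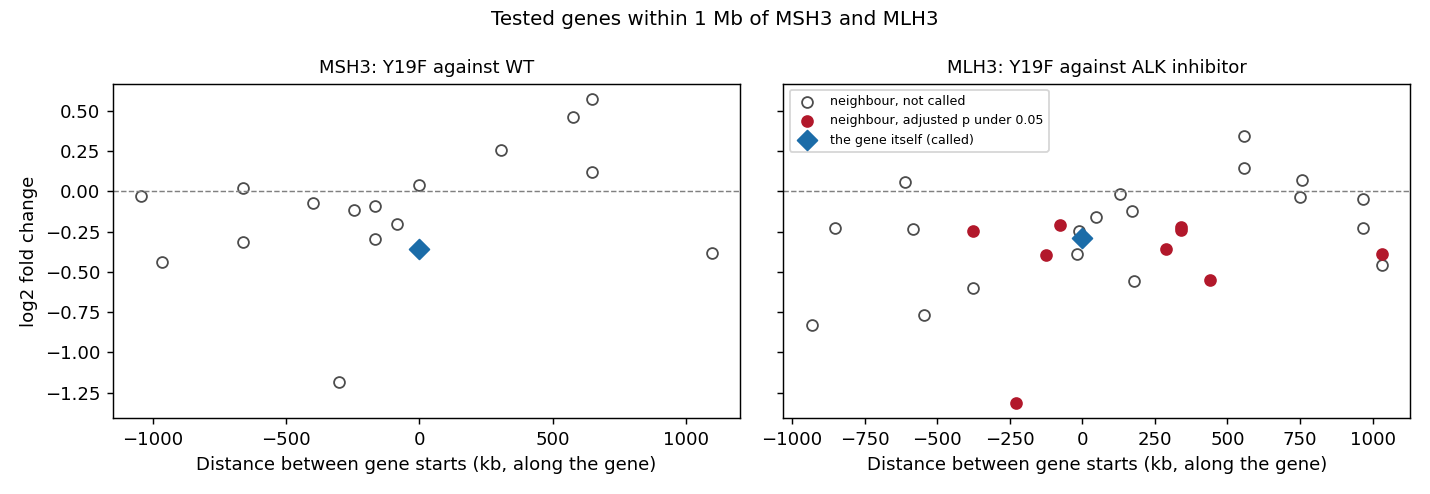
Log2 fold change (vertical axis) of tested genes within 1 Mb of MSH3 (left, Y19F against WT CDK9 cells) and MLH3 (right, Y19F against inhibitor-treated cells) by distance between gene starts in kb along the gene, with the gene itself as a blue diamond and called neighbours filled red. No MSH3 neighbour is called in the comparison shown, beside 18.0% of all tested genes, and 24 of 28 MLH3 neighbours lie below 0.

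Around MSH6, 11 of the 16 tested neighbours were below 0 in Y19F against WT CDK9 cells and 3 were called lower, beside 10.4% of all tested genes, with a median of -0.14. Around PMS2, 5 of 31 were called higher and 1 lower in this comparison, beside 18.0% of all tested genes called in either direction. The median of the 31 was 0.04. Exons on the other strand, where FBXO11, a ubiquitin ligase subunit, overlaps the span of MSH6, cover 24.2% of the annotated MSH6 exon bases, and since the strand setting of the counting is not given, reads of that stretch cannot be assigned with certainty. FBXO11 itself changed by -0.04 (adjusted p = 0.717). The share under exons of the other strand was 5.87% for MSH3, to which the same limit applies, and 1.76% for PMS1. No exon bases of MLH3 or PMS2 lay under another gene's exons. PMS1 and ORMDL1 differed from 0 by 0.09 and 0.06 in Y19F against WT CDK9 cells, neither of them called.

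PMS2 and AIMP2, whose starts face each other across the stretch printed above, were not alike. AIMP2 was at 27.5, 23.6 and 29.2 CPM in WT, 20.3, 18.8 and 22.0 CPM after inhibition and 32.3, 29.5 and 36.1 CPM in Y19F CDK9 cells, with no overlap between the 3 groups. It fell by 0.39 on the log2 scale after inhibition (SE 0.11, adjusted p = 0.0303) and was higher by 0.68 in Y19F than in treated cells (SE 0.11, adjusted p = 1.37e-05), while against WT its change in Y19F CDK9 cells was 0.28 (SE 0.11, adjusted p = 0.0596). The PMS2 changes in these comparisons had the opposite sign in the first 2, at 0.25 and -0.08, and were not called. The difference between the genes was not tested.

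The PMS2 counts have a further limit, because the genome holds near-identical copies of parts of PMS2 among which short reads can be split or lost. The table lists 11 of them, of which 6 passed the filter. PMS2CL, the closest in length, had 128 to 296 counts per library and PMS2P1 94 to 194, while PMS2 had 207 to 391. PMS2 made up 33.2 to 44.7% of all counts on PMS2 and its copies. PMS2CL was at 9.18 to 10.0 CPM in Y19F CDK9 cells, above every WT (6.93 to 8.44 CPM) and treated (6.08 to 8.22 CPM) library, a log2 fold change of 0.35 against WT (SE 0.17, adjusted p = 0.166). When PMS2 and its copies were summed to 1 row, an alternative added after the data had been seen, the changes were 0.11 after inhibition (adjusted p = 0.635), 0.14 in Y19F against WT CDK9 cells (adjusted p = 0.300) and 0.03 in Y19F against treated cells (adjusted p = 0.861), the last with the other sign than PMS2 alone.

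**Figure D4:**
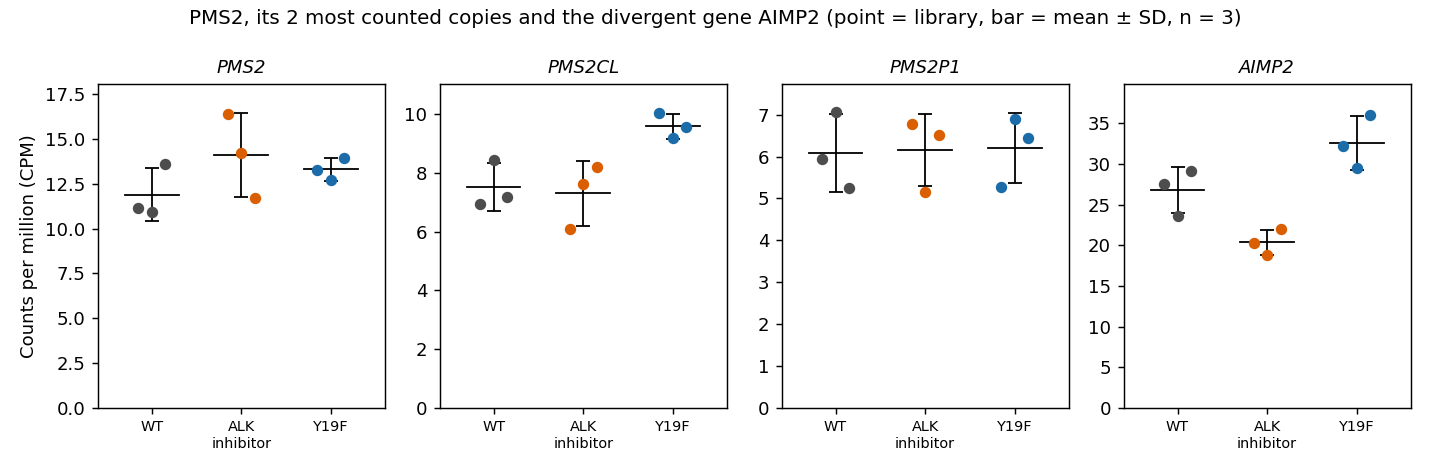
CPM (vertical axes from 0) of PMS2, its copies PMS2CL and PMS2P1 and the divergent gene AIMP2 in the 3 groups, with 1 point per library and the mean ± SD of 3 libraries. PMS2 and PMS2P1 overlap between groups, PMS2CL is highest in Y19F CDK9 cells, and AIMP2 separates all 3 groups.

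The proteins that act with MutS and MutL were read from a list of 25 genes for excision, resynthesis, ligation and related mismatch processing, all of which passed the filter. After inhibition 1 of 25 was called, beside 4.55% of all tested genes. It was PCNA, the sliding clamp that directs MutL to the new strand, at -0.17 (SE 0.05, adjusted p = 0.0210), from 238 ± 8.58 to 211 ± 7.79 CPM (SD, n = 3). The next 4 by adjusted p were MCM9, a helicase linked to mismatch repair, at -0.29 (adjusted p = 0.116), SETD2, a histone methyltransferase, at -0.19 (adjusted p = 0.188), the clamp loader subunit RFC2 at -0.13 (adjusted p = 0.348) and RPA2, a subunit of the single-strand binding protein, at 0.15 (adjusted p = 0.363). The median of the list was -0.05. PCNA lost its call with library size scaling and when any of WT replicate 01, WT replicate 02, Ai replicate 01 or Ai replicate 02 was left out.

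In Y19F against WT CDK9 cells 5 of the 25 were lower, 1 was higher and 19 were not called, beside 18.0% of all tested genes called, and the median was -0.02. RFC1, the large subunit of the clamp loader, was at 117 ± 3.96 CPM in Y19F against 151 ± 4.37 CPM in WT CDK9 cells, a change of -0.37 (SE 0.05, adjusted p = 1.47e-06), whereas RFC2, RFC3, RFC4 and RFC5, its small subunits, were not called and lay between -0.08 and 0.007. PCNA changed by -0.22 (SE 0.05, adjusted p = 6.27e-04). MCM9 was lower by 0.50 (log2 fold change -0.50, SE 0.10, adjusted p = 5.39e-04), and HMGB1, a chromatin protein that takes part in excision, changed by -0.16 (SE 0.04, adjusted p = 0.00127). TDG, a glycosylase for thymine opposite guanine, was the fifth at -0.28 (adjusted p = 0.0306). The 1 higher gene was POLD4, the smallest subunit of DNA polymerase delta, at 1.06 (SE 0.27, adjusted p = 0.00429), on a low level of 2.19 to 4.10 CPM in WT and 4.37 to 9.09 CPM in Y19F CDK9 cells.

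Against the treated cells, RFC1 (-0.33, adjusted p = 6.87e-06), TDG (-0.41, adjusted p = 0.00139) and HMGB1 (-0.11, adjusted p = 0.0291) were lower in Y19F CDK9 cells and the ligase LIG1 was higher (0.18, adjusted p = 0.0255). The glycosylase MUTYH was the fifth by adjusted p, at 0.30 (adjusted p = 0.121). The median of the list was 0.01, and 21 of 25 were not called, so that 4 of 25 stood beside 20.7% of all tested genes. Without Ai replicate 01, Ai replicate 03 or Y19F replicate 02 the 4 calls fell to 2. EXO1, the exonuclease of the pathway, was between 0.02 and 0.05 in the 3 comparisons, never called. The meiotic MutS homologues were weakly expressed, MSH4 at 8 to 36 counts per library and MSH5 at 63 to 189, and neither was called.

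**Figure D5:**
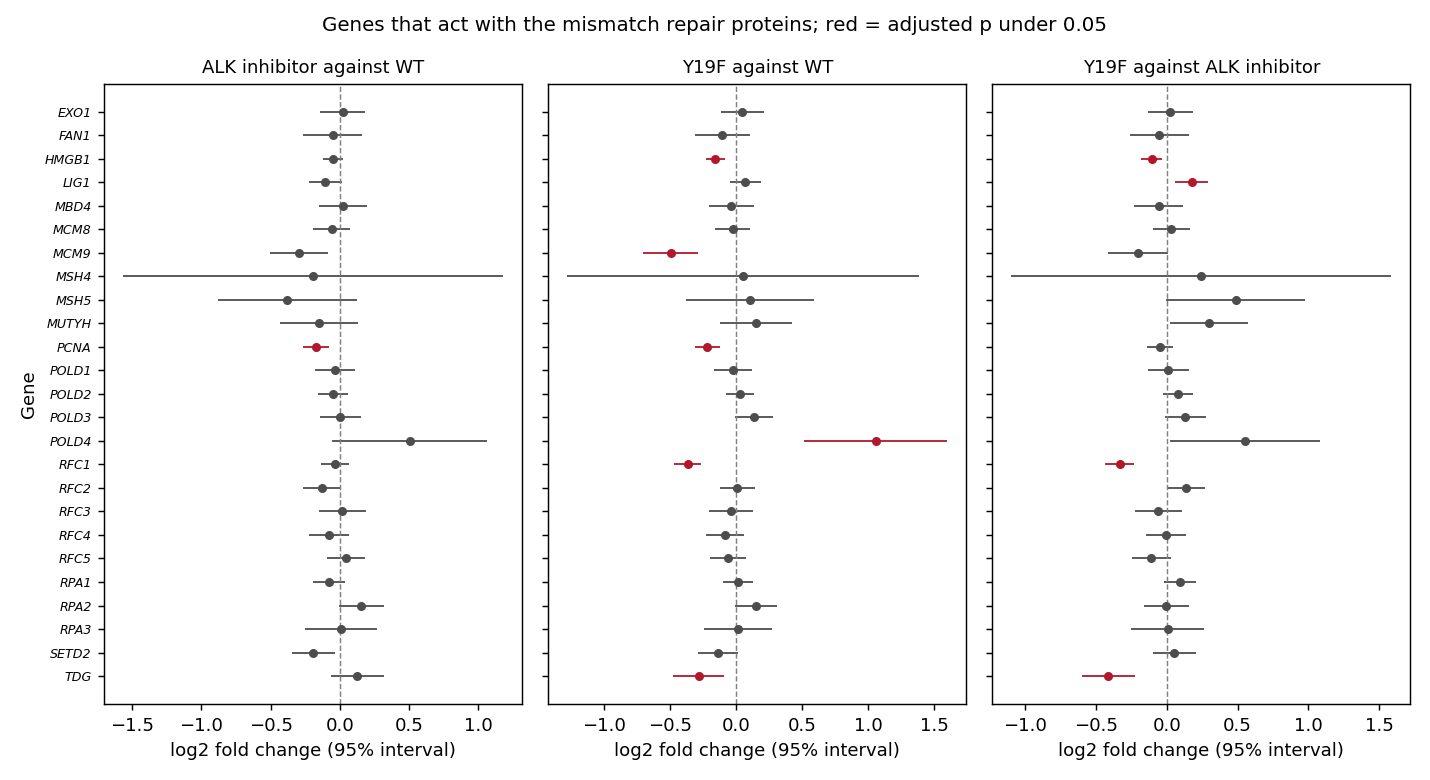
Log2 fold changes (horizontal axes, 95% intervals) of the 25 genes that act with the mismatch repair proteins in the 3 comparisons, with red marking an adjusted p under 0.05. RFC1 is lower in Y19F CDK9 cells against both other groups, PCNA is lower in both against WT, and MSH4 has the widest intervals.

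Since mismatch repair acts on newly replicated DNA, 16 S phase genes were read beside the 5 genes. After inhibition 15 of the 16 were below 0 with a median of -0.07, beside -0.07 for the 5 mismatch repair genes, and 1, the thymidylate synthase gene TYMS, was called lower, beside 4.55% of all tested genes called. In Y19F against WT CDK9 cells the median was -0.05, with RRM2 and SLBP lower and MCM5 and TYMS higher, 4 of 16 beside 18.0% of all tested genes. Against treated cells it was 0.07, with MCM2, MCM5, TYMS and UHRF1 higher, 4 of 16 beside 20.7%, whereas the 5 mismatch repair genes had a median of -0.08. The part of the cell cycle in the MSH3 and MLH3 values was not tested.

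The genes whose log2 CPM followed each mismatch repair gene most closely over the 9 libraries, among 11140 others with a mean of at least 5 CPM, were USP25 (Pearson's r = 0.95), KLF13 (0.94) and MYO5C (0.93) for MSH3, and GYG1 (0.97), CAMSAP3 (0.95) and NLRP2 (0.95) for MSH6. For MLH3 they were MET, SLC39A6 and SEPT3 (0.94 each), for PMS1 NDEL1 (0.97), C12orf56 (0.92) and STX7 (0.91), and for PMS2 ZNF747 (0.90), PPP4R1 (0.89) and TCF7L2 (0.88). The libraries share groups and depth, and such values are the highest of many, so they describe likeness of pattern in these 9 libraries and carry no test.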

How the data were processed

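RNA of 9 SKOV3 libraries was read by a sequencing provider and aligned to hg38. Per the labels, CASAVA, HISAT2 2.0.5 and featureCounts 1.5.0-p3 are named in the submitters' processing notes. The annotation release and the strand setting are not given in the sources used here. The authors deposited raw counts of reads per gene without normalization. A read shared with a copy may be lost or split when reads are assigned to genes. All 9 columns were mapped to libraries by the deposited titles.

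The counts were modelled with edgeR 4.0.16 in R 4.3.3 (TMM scaling, filterByExpr with a minimum count of 10 and total of 15, quasi-likelihood test, 1 mean per group, 6 residual degrees of freedom), and 16350 genes were tested. Adjusted p-values are Benjamini-Hochberg over all tested genes, and those under 0.05 were called. Levels are CPM after TMM scaling, with a prior count of 2 on the log2 scale. DESeq2 1.42.0, the tool the study's methods name, was an alternative. Ratios were compared in Python 3.11.15 with scipy 1.17.1 by exact permutation. Exon overlaps and transcript lengths came from GENCODE release 44, promoters from RefSeq. The code was tested on simulated data.

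Alternatives were other scalings (DESeq2's size factors in edgeR, upper quartile, library size only), a replicate block, no filter, a minimum of 10 counts per library, restriction to protein-coding genes, a fit of the 2 compared groups, an adjusted p under 0.01, each library left out and, for ratios, raw counts without length. Added after seeing the data were the sum of PMS2 and its copies and the canonical transcript length. Genes were named by rule: the 5 members, the 5 smallest adjusted p of the pathway list per comparison, PMS2 copies, overlapping or divergent neighbours, and the 3 closest patterns per member. TDG and RFC2 to RFC5 against WT, EXO1, the meiotic homologues, TMED10, FOS and the S phase genes named were chosen after their values were seen. The members and lists were chosen with earlier results of these data known. Some further genes, of the pathway or met by these rules, are not reported here. Intervals of 95% come from the fit.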

Additional observations from a re-analysis of the deposited data

Results flagged for a closer look

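MLH3 was singled out because the inhibitor and the Y19F substitution, each set against WT CDK9 cells, had effects that differed by the direct contrast of these groups. The difference was -0.29 on the log2 scale (edgeR's quasi-likelihood test, adjusted p = 0.0472), with MLH3 at 0.06 after inhibition and -0.23 in Y19F CDK9 cells relative to the shared WT libraries, and 2 of 3 Y19F libraries lay below every treated library. With 1 of 5 genes called and 20.7% of tested genes called in this contrast, the count is that of the background. Groups of 3 libraries were not examined for outlying samples.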

How the results depend on the processing

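The count of mismatch repair genes called was 0 for the inhibitor under all 19 alternatives. For Y19F against WT CDK9 cells it was 1, dropping to 0 at an adjusted p under 0.01 and ranging from 0 to 1 when single libraries were left out. Against treated cells it was 1, and 0 with upper quartile scaling, with DESeq2, in the fit of the 2 compared groups, at an adjusted p under 0.01, and 0 to 1 without single libraries. The pathway count for the inhibitor was 1, and 0 with library size only and at an adjusted p under 0.01 (0 to 1 without single libraries). For Y19F against treated cells it was 4, and 3 with upper quartile scaling or no filter on low counts. It was 2 at an adjusted p under 0.01 (2 to 4 without single libraries). For Y19F against WT CDK9 cells the pathway count stayed between 4 and 6. The sign turned for PMS2 in Y19F against treated cells, to 0.0295 with its copies summed and to 0.0397 without Ai replicate 01 (-0.203 to 0.0397 without single libraries), and, without Ai replicate 01, for MLH3 (-0.0528) and PMS1 (0.0352) after inhibition, where the values without single libraries were -0.0528 to 0.136 and -0.241 to 0.0352. Beyond fewer libraries, the causes were not tested. Gene length cancels from the ratio differences. Leaving out single libraries kept their signs but moved PMS2 to PMS1 between 0.0922 and 0.615 after inhibition and between -0.534 and -0.012 in Y19F against treated cells. Same-numbered libraries did not deviate together over all tested genes (correlations -0.01 to 0.03, against -0.03 to 0.02 for the other pairs). Such correlations cannot settle whether they share a culture or batch. With the replicate block, 0, 1 and 1 mismatch repair genes and 1, 6 and 4 pathway genes were called, as without it. The adjusted p of MLH3 (edgeR's test) with the block was 0.0283 in Y19F against treated cells and 0.0873 against WT CDK9 cells. Depth limits PMS2 most, at 207 to 391 counts per library.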
